A study of Mus musculus with 4 samples.

Results

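The keratin, cell junction, integrin and extracellular matrix genes of mouse pyloric stomach are described here, comparing tissue with and without the Hippo pathway kinases LATS1 and LATS2 in the Lgr5 lineage. They were taken by name: every gene of the authors' deposited table whose symbol belongs to the keratin, claudin, cadherin, protocadherin, catenin, desmosome, plakin, integrin, laminin, collagen, connexin, Ceacam, nidogen, fibronectin, fibrillin, Lox, decorin or Sparc families or is a named partner such as Tjp, Ocln, F11r or Pard, with Krt4 left out. This gave 42 genes out of 2701 in the table. The same names cover 361 annotated mouse genes, and the 319 others are not analysed here; the table as used holds only genes with an adjusted p of at most 0.05.

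RNA came from 10 µm cryosections of C57BL/6 stomach, labelled as pyloric epithelium, with 2 libraries per group. WT denotes Lats1fl/fl;Lats2fl/fl mice without Cre, and Lats1/2 KO (Lats1/2iΔLgr5 in the labels) denotes Lats1fl/fl;Lats2fl/fl;Lgr5-CreER mice, both sampled 8 weeks after tamoxifen. CreER is driven from Lgr5, so recombination starts in Lgr5-positive gland cells and reaches other epithelium through their progeny. The CreER allele is carried by the Lats1/2 KO mice alone, so its own effect and that of the deletion cannot be told apart. The sources used here give neither age nor sex. Lats1, the targeted gene that was listed, had 2152 and 1974 normalized counts in WT 1 and 2 and 942.5 and 1129 in Lats1/2 KO 1 and 2, a log2 fold change of -0.99 ± 0.17, so the labels matched its direction. Nothing states whether the 2 libraries of a group came from separate animals, and p-values then measure only the spread between these samples. A section averages over all its cells, so that fewer cells of a type and less RNA per cell cannot be told apart.

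Keratins form the intermediate filaments of epithelial cells, desmosomes tie those filaments together across neighbouring cells, and tight and adherens junctions seal and hold the layer. At the base of the cell, integrins bind laminins and collagens of the basement membrane, and beneath it fibrillar collagens make up the stroma. LATS kinases restrain the coactivators YAP and TAZ, which respond to cell contact and to the stiffness of the matrix, so these genes encode structures that the Hippo pathway is known to read.

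Among the 42 genes, 31 fell and 11 rose in the Lats1/2 KO pylorus by the authors' deposited table (73.8% lower and 26.2% higher). The authors' call covered 20.6% of about 13137 tested genes, with 11.7% lower and 8.81% higher. Within the table itself, 57.1% of all genes were lower and 42.9% higher. The falls were mostly small and in abundant genes: the median log2 fold change of the 31 was -0.73 at a median base mean of 5304 normalized counts. The rises were larger and in scarcer genes, with a median of 1.67 at a base mean of 404. The same relation ran through the whole table, where genes with a base mean of at least 1000 were higher in 16.6% of cases against 10.7% of the 28 such genes here, and those under 1000 in 73.5% against 57.1% of 14. A change of at least 1 on the log2 scale was seen in 12 of the 42, against 40.1% of listed genes. Over all 42 the median log2 fold change was -0.57, beside -0.50 over all listed genes. In each of the 42 the WT and Lats1/2 KO libraries did not overlap, as in 99.9% of listed genes, which the authors' selection favours.

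**Figure D1:**
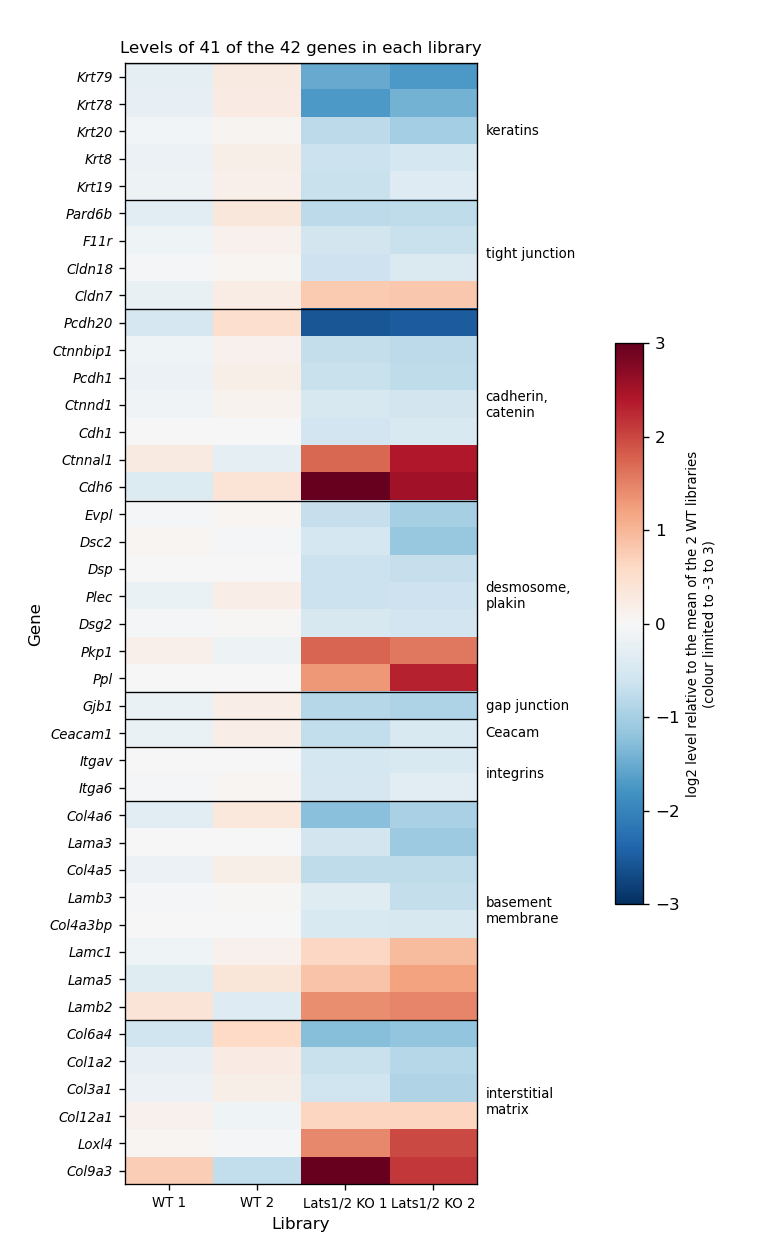
Log2 level of 41 of the 42 genes (rows, by family) in each library (columns), relative to the mean of the 2 WT libraries; colours stop at -3 and 3. Most rows are blue in both Lats1/2 KO libraries, with Cdh6, Col9a3, Ctnnal1, Ppl, Loxl4, Pkp1, Lamb2, Lama5, Lamc1, Cldn7 and Col12a1 red, on the authors' scaling.

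How firmly a fall is called depends on the scaling and on single libraries. With edgeR's quasi-likelihood test on the authors' size factors, all 11 rises and 31 falls passed an adjusted p of 0.05 (over listed genes, 42.9% called higher and 57.1% lower). TMM scaling computed from the listed genes raised every log2 fold change by about 0.36. It kept the 11 rises (42.9% of listed genes called higher) and left 6 falls, those of Krt78, Krt79, Krt20, Gjb1, Evpl and Pcdh20 (18.3% called lower). Scaling by the summed counts of the listed genes, 14.7% to 22.1% of which came from the mucous cell genes Gkn1 and Gkn2, raised them by 0.69 and turned 15 falls into rises between 0.0294 and 0.28, none of which passed the test. Among them were Cdh1, Ceacam1, Cldn18, Col4a3bp, Ctnnd1, Dsg2, Dsp, F11r, Itga6, Itgav, Krt8, Krt19, Lamb3 and Plec. Both alternatives assume that changes within this selected table cancel out, whereas the authors' factors were recovered from their base means. With a library left out, edgeR called 42 of the 42 without WT 1, 32 without WT 2, 21 without Lats1/2 KO 1 and 0 without Lats1/2 KO 2. In that last case the adjusted p ranged from 0.0702 to 0.116, and 32 had an unadjusted p under 0.05. DESeq2's Wald test on the same libraries, added after the data were seen, called 38, 18, 24 and 19. No gene changed direction in any of these. Every log2 fold change below is from edgeR on the authors' factors with its standard error (SE), and levels are counts divided by those factors (normalized counts).

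Of 54 annotated keratin names 5 were listed, beside 20.6% of tested genes, and how many of the 54 were tested is not known here. All 5 fell, beside 57.1% of listed genes and 83.4% of those with a base mean of at least 1000, where all but Krt79 lie. Krt8 and Krt19 turned with the summed-count scaling. Krt8, the type II keratin of simple epithelia, was the most abundant gene of the 42, with 254819 and 329241 normalized counts in WT 1 and 2 and 184580.4 and 199544 in Lats1/2 KO 1 and 2. Its log2 fold change was -0.60 ± 0.19, and its adjusted p in the authors' deposited table was 0.013. Krt19, a type I keratin of simple epithelia, had 181404 and 227476 in WT and 127588 and 155815 in Lats1/2 KO, a change of -0.53 ± 0.20. Both were lower in each Lats1/2 KO library than in either WT library, yet both lost the edgeR call without WT 2, where they stood at -0.41 and -0.36. The usual type I partner of Krt8, Krt18, has no values here. Reads of Krt8 may be divided with its near-identical processed copies, so its level is less certain.

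Krt20, the keratin of differentiated gastrointestinal surface cells, had 100161 and 111438 normalized counts in WT 1 and 2 and 60947 and 52367 in Lats1/2 KO 1 and 2. Its log2 fold change was -0.90 ± 0.16, below those of Krt8 and Krt19 by a difference that was not tested (adjusted p 3.36e-06 in the authors' deposited table). Krt20 was still called on TMM factors (edgeR adjusted p 0.0203), while with summed counts Krt20 was -0.21 and not called. Within each library the level of Krt20 per kb of exon was 0.399 and 0.344 of that of Krt8 in WT 1 and 2, and 0.336 and 0.267 in Lats1/2 KO 1 and 2. This ratio is free of the scaling, and the Lats1/2 KO 1 value lay only just below WT 2. The Krt19 to Krt8 ratio overlapped between the groups, from 0.729 to 0.751 in WT and from 0.730 to 0.824 in Lats1/2 KO.

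The promoter of Krt20 is shown because, among the 26 genes here matched to a RefSeq promoter (34 windows of 250 bases before a start, GRCm38.p6), it held the most matches to the letters bound by TEAD factors, the DNA-binding partners of YAP. The window is chr11:99438154-99438403 on the minus strand, 5′ to 3′, with each GGAATG or its reverse complement CATTCC in capitals; the first 2 matches follow each other and share 1 base.
Krt20: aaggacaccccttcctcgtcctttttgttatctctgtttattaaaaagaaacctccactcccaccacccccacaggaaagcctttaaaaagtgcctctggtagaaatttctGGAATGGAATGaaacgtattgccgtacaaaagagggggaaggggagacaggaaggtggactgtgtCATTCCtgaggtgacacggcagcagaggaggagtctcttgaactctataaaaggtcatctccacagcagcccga
Its 3 matches begin 139, 134 and 74 bases before the end of the window. At least 3 matches occurred in 30 of 32851 RefSeq promoter windows (0.0913%), and at least 1 in 12.6%, beside 7 of the 34 windows here (20.6%). By direction, 1 of 7 windows of genes that rose and 6 of 27 of genes that fell held one. The motif bound by AP-1, TGANTCA, was in 1 of the 34, at F11r, and in 6.75% of all windows. Matching letters do not show binding, and the window was picked after the search.

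Krt78 and Krt79 had the deepest falls among the keratins. These type II keratins belong to stratified and follicular epithelium and were far scarcer than Krt8, at 512 and 249 normalized counts per kb in WT against 149147. Krt78 had 1466 and 2054 in WT and 528 and 646 in Lats1/2 KO, a change of -1.58 ± 0.23. Krt79 had 973 and 1395 in WT and 410.2 and 352 in Lats1/2 KO, a change of -1.64 ± 0.24. Their authors' adjusted p-values, 1.57e-07 and 2.49e-07 in the authors' deposited table, were the lowest of the 42. Both remained called lower on every scaling tried. Krt4, a squamous keratin of the forestomach that the name rule leaves out, moved the other way, with 31.5 and 54.0 in WT and 147 and 123 in Lats1/2 KO (1.65 ± 0.43). It was the 1 listed gene of 9 forestomach squamous markers; Krt5, Krt13, Krt14 and Trp63 have no values here, and the part of squamous tissue in these values was not tested.

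Of 52 annotated tight junction and polarity names, 4 were listed, 3 lower and 1 higher. The falls of Cldn18 and F11r turned with the summed-count scaling, where Pard6b stood at -0.11. Cldn18, the claudin that is typical of stomach, had 63980.3 and 70012 normalized counts in WT 1 and 2 and 43458 and 49655 in Lats1/2 KO 1 and 2. That is a log2 fold change of -0.53 ± 0.15, with an edgeR adjusted p on TMM factors of 0.325. Cldn7, a claudin widespread in simple epithelia, rose, with 1611 and 2207 in WT and 3261 and 3301 in Lats1/2 KO (0.78 ± 0.19; adjusted p 0.00428 in the authors' deposited table). The ratio of Cldn18 to Cldn7 per kb of exon was 17.4 and 13.9 in WT 1 and 2 and 5.83 and 6.58 in Lats1/2 KO 1 and 2. The mean of these within-library ratios was 2.52-fold lower in Lats1/2 KO. F11r, which encodes the junctional adhesion molecule JAM-A, had 9852 and 11619 in WT and 7291 and 6779 in Lats1/2 KO. Its change was -0.61 ± 0.14. Pard6b, a scaffold of the apical PAR complex, had 1807 and 2906 in WT and 1324 and 1358 in Lats1/2 KO, so that WT 2 stood well above WT 1. The log2 fold change of Pard6b was -0.81 ± 0.25 and -0.43 without WT 2.

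Cadherins, protocadherins and catenins contributed 7 genes out of 102 names, 5 lower and 2 higher. The falls of Cdh1 and Ctnnd1 turned with the summed-count scaling, where Pcdh1 and Ctnnbip1 stood at -0.033 and -0.059. Cdh1, which encodes E-cadherin, the adhesion receptor of epithelial adherens junctions, had 44796 and 45287 normalized counts in WT 1 and 2 and 30285 and 32556 in Lats1/2 KO 1 and 2. The WT libraries were nearly equal, and the change was -0.52 ± 0.14. Ctnnd1, p120-catenin, which holds cadherins at the membrane, had 2457 and 2841 in WT and 1881 and 1791 in Lats1/2 KO (-0.53 ± 0.15). Its exons share 4482 bases with an overlapping gene model on the same strand, so its count is less certain. Cdh6, a type II cadherin of embryonic kidney and mesenchyme, rose from a very low level, with 10.1 and 17.6 in WT and 151 and 76.6 in Lats1/2 KO. Its log2 fold change of 3.01 ± 0.58 was the highest of the 42, and it lay between 2.44 (without Lats1/2 KO 1) and 3.48 (without WT 2) with a library left out. Per kb of exon, Cdh1 still exceeded Cdh6 by 395-fold and 839-fold in the Lats1/2 KO libraries, against 8754-fold and 5063-fold in WT 1 and 2.

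Pcdh20, a protocadherin, had the lowest log2 fold change of the 42, at -2.61 ± 0.47, with 125 and 248 in WT and 29.9 and 31.3 in Lats1/2 KO. Both Lats1/2 KO libraries agreed closely, and the WT libraries differed about as 1 to 2. Pcdh1, a protocadherin of epithelia, had 5209 and 6745 in WT and 3738 and 3469 in Lats1/2 KO (-0.73 ± 0.16). Ctnnal1, an alpha-catenin-like protein, rose, with 85.8 and 59.6 in WT and 236 and 377 in Lats1/2 KO (2.08 ± 0.38). Ctnnbip1 is named for binding beta-catenin and blocks its union with TCF factors rather than building junctions; it had 813 and 978 in WT and 541 and 521 in Lats1/2 KO, a change of -0.76 ± 0.19.

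The desmosome and its linker proteins had 7 of 18 annotated names listed, 5 lower and 2 higher. By the authors' call 20.6% of tested genes were listed, and how many of the 18 names were tested is not known here. Dsp, Dsg2 and Plec turned with the summed-count scaling, where Dsc2 stood at -0.12. Dsp, desmoplakin, which ties keratins to the desmosome, had 35402 and 35289 normalized counts in WT 1 and 2 and 22737 and 21947 in Lats1/2 KO 1 and 2. Replicates of Dsp lay within a few percent of each other, and the change was -0.66 ± 0.13 (adjusted p 1.50e-05 in the authors' deposited table; edgeR on TMM factors, adjusted p 0.074). Both listed desmosomal cadherins fell on the authors' scaling, and neither was called on TMM factors (edgeR adjusted p 0.230 for Dsg2 and 0.112 for Dsc2). Dsg2 had 15029.7 and 15671 in WT and 10964 and 10379 in Lats1/2 KO (-0.52 ± 0.13). Dsc2 had 22432 and 21017 in WT and 14986 and 9948 in Lats1/2 KO (-0.80 ± 0.22), and Lats1/2 KO 2 was the lower of the pair. Plec, plectin, which links filaments to hemidesmosomes, had 12888 and 16867 in WT and 9422 and 9640.0 in Lats1/2 KO (-0.64 ± 0.17).

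Pkp1, a plakophilin that is abundant in stratified epithelium, rose instead. It had 49.2 and 39.7 normalized counts in WT 1 and 2 and 149 and 133 in Lats1/2 KO 1 and 2, a change of 1.67 ± 0.36. The Dsp to Pkp1 ratio per kb of exon was 374 and 462 in WT 1 and 2 and 79.2 and 85.9 in Lats1/2 KO 1 and 2. Evpl and Ppl, the envelope plakins envoplakin and periplakin, which pair with each other, moved in opposite directions. Evpl had 5584 and 5975 in WT and 3583 and 2911 in Lats1/2 KO (-0.83 ± 0.15); with summed counts it was -0.14 and not called. Ppl had 331 and 334 in WT and 823 and 1648 in Lats1/2 KO (1.89 ± 0.35). The WT values of Ppl were nearly equal, and Lats1/2 KO 2 was about double Lats1/2 KO 1. Per kb of exon, the Evpl to Ppl ratio was 18.2 and 19.3 in WT 1 and 2 and 4.70 and 1.91 in Lats1/2 KO 1 and 2, a ratio unaffected by the scaling.

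Gjb1, which encodes connexin 32, a gap junction protein of secretory and gland epithelium, was the 1 listed connexin of 16. It had 18339.8 and 23899 normalized counts in WT 1 and 2 and 11611 and 10993 in Lats1/2 KO 1 and 2 and a log2 fold change of -0.90 ± 0.17, and it was still called lower on TMM factors (edgeR adjusted p 0.0221). Ceacam1, an adhesion protein of the apical membrane, was the 1 listed gene of 16 Ceacam names, with 6985 and 9282 in WT and 4843 and 5895 in Lats1/2 KO. Its change of -0.60 ± 0.19 became -0.38 without WT 2 and turned positive with the summed-count scaling. Mouse Ceacam2 is a near-identical copy that may take some of its reads.

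Both listed integrins, out of 31 names in that family, were lower, beside 57.1% of listed genes. With the summed-count scaling both turned. Itga6, the alpha chain of the laminin receptor in hemidesmosomes, had 13671 and 14702 normalized counts in WT 1 and 2 and 10011 and 11253 in Lats1/2 KO 1 and 2. This change of -0.42 ± 0.14 was the smallest of the 42 (edgeR adjusted p 0.0261 on the authors' factors, 0.694 on TMM factors). Itgav, the alpha chain of receptors for fibronectin and vitronectin, had 3959 and 3937 in WT and 2723 and 2872 in Lats1/2 KO (-0.50 ± 0.12). The WT values of Itgav differed by less than 1% of their mean. The beta chains and Itga2 have no values here.

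Laminin genes moved in both directions. Laminins are cross-shaped trimers of an alpha, a beta and a gamma chain. Lama3 and Lamb3 encode chains of the laminin that anchors hemidesmosomes of epithelia, and both fell on the authors' scaling. Neither fall was called on TMM factors (edgeR adjusted p 0.0880 and 0.303). With the summed-count scaling Lama3 stood at -0.12 and was not called, and Lamb3 turned. Lama5, Lamb2 and Lamc1, chains of the trimers found in most mature basement membranes, all rose on each scaling.

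Lama3 had 4253 and 4181 normalized counts in WT 1 and 2 and 2858 and 1973 in Lats1/2 KO 1 and 2. The WT libraries were close, Lats1/2 KO 2 was the lowest, and the change was -0.80 ± 0.20. Lamb3 had 9101 and 9648 in WT and 7252 and 5681 in Lats1/2 KO (-0.54 ± 0.16). On the other side, Lama5 had 747 and 1247 normalized counts in WT 1 and 2 and 1751 and 2239 in Lats1/2 KO 1 and 2. With Lama5 the WT libraries were apart, and the change of 1.00 ± 0.28 was 0.68 without WT 1 and 1.42 without WT 2. Lamb2 had 371 and 218 in WT and 751 and 789 in Lats1/2 KO (1.39 ± 0.30; adjusted p 4.65e-04 in the authors' deposited table). Lamc1 had 1906 and 2269 in WT and 3205 and 4007 in Lats1/2 KO (0.79 ± 0.17).

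In normalized counts per kb of exon Lama3 and Lamb3 stayed more abundant together than Lama5 and Lamb2 together. Group means of Lamb3 went from 1418 to 978 and those of Lama3 from 392 to 225, while Lamc1 went from 252 to 436, Lama5 from 87.6 to 175 and Lamb2 from 48.5 to 127. The summed level of Lama3 and Lamb3 over that of Lama5 and Lamb2 was 14.0 and 12.7 in WT 1 and 2 and 4.92 and 3.20 in Lats1/2 KO 1 and 2. That makes 13.4 ± 0.912 in WT and 4.06 ± 1.22 in Lats1/2 KO (SD, n = 2), 3.29-fold lower. A ratio within a library needs no scaling between libraries; it shows unequal change and not which side moved. Taken chain by chain, Lama3 over Lama5 was 6.03 and 3.55 in WT 1 and 2 and 1.73 and 0.934 in Lats1/2 KO 1 and 2. Lamb3 over Lamb2 was 22.6 and 40.6 in WT 1 and 2 and 8.89 and 6.63 in Lats1/2 KO 1 and 2. The groups did not overlap in either ratio. That was fixed in advance, because each ratio divides a gene that fell by a gene that rose. Neither gene of a pair overlapped between the groups, as in 99.9% of listed genes. The ratios were formed after the values were seen and carry no test.

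**Figure D2:**
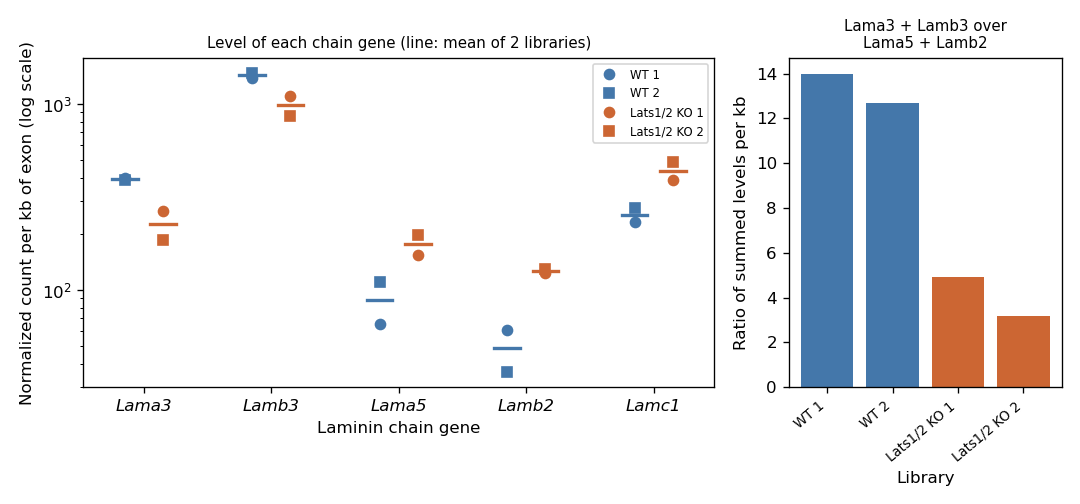
Left, normalized counts per kb of exon (log axis) of 5 laminin chain genes in each library, lines marking the mean of 2 libraries; right, the ratio of the summed levels of Lama3 and Lamb3 to those of Lama5 and Lamb2 per library. The ratio was 14.0 and 12.7 in WT 1 and 2 and 4.92 and 3.20 in Lats1/2 KO 1 and 2. The falls of Lama3 and Lamb3 in the left panel are not called on TMM factors. With the summed-count scaling that of Lama3 is -0.12 on the log2 scale, that of Lamb3 turns, and the ratio does not change.

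Among collagens of the basement membrane, Col4a5 and Col4a6 fell on the authors' scaling, and neither was called on another scaling (edgeR adjusted p 0.0979 and 0.0573 on TMM factors); with summed counts they stood at -0.0664 and -0.42. They encode type IV chains that assemble with each other in epithelial basement membranes. Col4a5 (chromosome X, 141475385 to 141689234) had 965 and 1222 in WT and 646 and 642 in Lats1/2 KO (-0.77 ± 0.19). Col4a6 (chromosome X, 141165403 to 141474076) had 464 and 715 in WT and 243 and 295 in Lats1/2 KO (-1.13 ± 0.29). Their ratio per kb of exon was 2.47 and 2.03 in WT 1 and 2 and 3.16 and 2.58 in Lats1/2 KO 1 and 2; the groups did not overlap, and the difference was not tested. Both stand head to head on the X chromosome, on opposite strands and 1308 bp apart. The sequence before each start is shown because both starts lie in this interval; no shared control was tested (RefSeq windows, GRCm38.p6, limited to bases outside the GENCODE genes): chrX:141474077-141474326 on the minus strand for Col4a6 and chrX:141475169-141475384 on the plus strand for Col4a5, each 5′ to 3′.
Col4a6: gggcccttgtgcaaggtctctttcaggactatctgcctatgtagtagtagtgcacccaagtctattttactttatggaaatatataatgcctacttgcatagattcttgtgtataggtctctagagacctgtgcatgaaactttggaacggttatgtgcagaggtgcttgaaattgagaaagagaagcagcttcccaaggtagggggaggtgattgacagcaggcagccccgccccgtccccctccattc
Col4a5: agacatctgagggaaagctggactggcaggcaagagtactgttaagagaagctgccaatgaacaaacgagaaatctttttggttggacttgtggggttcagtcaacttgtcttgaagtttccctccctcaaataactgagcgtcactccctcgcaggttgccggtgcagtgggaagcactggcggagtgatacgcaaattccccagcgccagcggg
Neither GGAATG nor TGANTCA was in these windows on either strand, so nothing is in capitals. Col4a3bp shares the prefix of this family by name alone: it encodes a carrier of ceramide between membranes. It had 3538 and 3482 in WT and 2561 and 2501 in Lats1/2 KO (-0.47 ± 0.12) and turned with the summed-count scaling.

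In the interstitial matrix, 6 of 47 names were listed, 3 lower and 3 higher; the falls were called on the authors' scaling alone, and with summed counts Col3a1, Col1a2 and Col6a4 stood at -0.0603, -0.0864 and -0.64. The fibrillar collagen genes Col3a1 and Col1a2 fell side by side. Col3a1 had 5869 and 7445 normalized counts in WT 1 and 2 and 4364 and 3539 in Lats1/2 KO 1 and 2, a change of -0.75 ± 0.18. Col1a2 had 3368 and 4751 in WT and 2503 and 2213 in Lats1/2 KO (-0.78 ± 0.20), and -0.51 without WT 2. Per kb of exon, Col3a1 exceeded Col1a2 by 2.21 and 1.98-fold in WT and by 2.21 and 2.02-fold in Lats1/2 KO, with overlapping ranges. Both missed the threshold on TMM factors (edgeR adjusted p 0.0752 and 0.0807).

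Col6a4, a chain of beaded-filament collagen, had 498 and 1159 in WT and 314 and 335 in Lats1/2 KO. Its WT libraries differed by more than 2-fold, and its change of -1.35 ± 0.41 was -0.62 without WT 2. Col9a3, a collagen best known from cartilage, rose, with 85.8 and 30.9 in WT and 477 and 223 in Lats1/2 KO (2.59 ± 0.62). Its exons overlap those of Tcfl5 on the opposite strand by 234 bases, and although the library kit marks strand, the sources used here do not say whether counting used it. Col12a1, which decorates collagen fibrils, had 343 and 289 in WT and 489.8 and 492 in Lats1/2 KO (0.64 ± 0.21). Loxl4, an enzyme of the family that crosslinks collagen and elastin, had 114 and 105 in WT and 298 and 432 in Lats1/2 KO, a change of 1.74 ± 0.30 (adjusted p 2.65e-05 in the authors' deposited table).

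Other stromal markers were few. Of 11 fibroblast markers, 3 were listed, all lower, beside 20.6% of tested genes listed and 57.1% of listed genes lower. They were Col3a1, Col1a2 and Mmp2, the last with 830.4 and 1485 in WT and 547 and 579.9 in Lats1/2 KO (-1.04 ± 0.30). None of the 3 was called on TMM factors (edgeR adjusted p 0.0752 to 0.0847). With summed counts they stood at -0.0603, -0.0864 and -0.33. On the authors' scaling, their summed level was 10068 and 13681 normalized counts in WT 1 and 2 and 7414 and 6332 in Lats1/2 KO 1 and 2. The endothelial receptor gene Kdr, 1 of 8 endothelial markers, had 462 and 698 in WT and 334 and 338 in Lats1/2 KO (-0.79 ± 0.26). Kdr was not called on TMM factors (edgeR adjusted p 0.184) and stood at -0.083 with summed counts. Msln, 1 of 4 mesothelial markers and also made by some epithelia, had 63.1 and 9.93 in WT and 591 and 909 in Lats1/2 KO (4.38 ± 0.78), and the other 3 were not listed. None of 8 smooth muscle, 8 leukocyte or 5 enteric neuron and glia markers was listed, so their levels are not analysed here. Of 9 markers of pyloric and surface epithelium, Gkn1, Gkn2, Tff1, Muc5ac and Pdx1 were listed, all lower in Lats1/2 KO on the authors' scaling. Beside them, 83.4% of listed genes with a base mean of at least 1000, where these 5 lie, were lower. Their sum, mostly Gkn1 and Gkn2, was 4327897 and 4581006 in WT and 2330680 and 1899753 in Lats1/2 KO. On TMM factors Muc5ac and Pdx1 were not called (edgeR adjusted p 0.197 and 0.0885) and the others were. With summed counts none of the 5 was called, at -0.42 to -0.030. The part of these cell types in the results above was not tested.

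Of 33 junction partners outside the name rule, 6 were listed, beside 20.6% of tested genes. All 6 fell, beside 57.1% of listed genes and 83.4% of those with a base mean of at least 1000, where these 6 lie. Arhgef18, Esrp1, Mpp5 and Perp turned with the summed-count scaling, to between 0.041 and 0.29. Ovol1, a transcription factor of epithelial identity, had 1485 and 2146 in WT and 726 and 596 in Lats1/2 KO (-1.46 ± 0.24). Perp, a desmosomal membrane protein, had 15095 and 15840.2 in WT and 9072 and 10536 in Lats1/2 KO (-0.66 ± 0.14). The polarity genes Crb3 and Mpp5 changed by -0.71 ± 0.19 and -0.61 ± 0.16, and the splicing factor gene Esrp1 and the exchange factor gene Arhgef18 by -0.41 ± 0.12 and -0.52 ± 0.17. On TMM factors 1 of them, Ovol1, passed (edgeR adjusted p 0.00958).

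Of 32 partners of integrin adhesion, 7 were listed, 3 higher and 4 lower, beside 20.6% of tested genes listed and 57.1% of listed genes lower. The falls of Pxn, Src and Vasp turned with the summed-count scaling, to 0.11, 0.092 and 0.15. Bcam, a receptor for the laminin alpha chain encoded by Lama5, rose 4.65-fold, with 257 and 204 in WT and 1215 and 930.1 in Lats1/2 KO (2.22 ± 0.24). Tln2, a talin that couples integrins to actin, had 323 and 312 in WT and 882 and 819 in Lats1/2 KO (1.42 ± 0.18). Tns4, a tensin, had 324 and 112 in WT and 649 and 918 in Lats1/2 KO (1.85 ± 0.51). The focal adhesion genes Pxn, Vasp, Src and Ptk2b changed by -0.59 ± 0.14, -0.55 ± 0.14, -0.60 ± 0.16 and -0.80 ± 0.18, and none of these 4 passed on TMM factors (edgeR adjusted p 0.0561 to 0.21).

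Matrix synthesis and turnover had 12 of 44 genes listed, 9 higher and 3 lower, beside 20.6% of tested genes listed and 42.9% of listed genes higher. Apart from Thbs1, the genes that rose had a base mean under 1000, where 73.5% of listed genes were higher. Mmp2, which fell, lay there too, and Mmp15 and P4hb lay above 1000. Thbs1, a matricellular protein, had 613 and 775 in WT and 2415 and 1941 in Lats1/2 KO (1.65 ± 0.20). Tgm2, which crosslinks matrix proteins, had 546 and 561 in WT and 1074 and 1261 in Lats1/2 KO (1.08 ± 0.18). Eln, elastin, changed by 1.09 ± 0.32, the procollagen proteinase gene Bmp1 by 0.82 ± 0.27, the collagen hydroxylase gene Plod3 by 0.63 ± 0.18, Efemp1 by 1.17 ± 0.35 and Pcolce2 by 3.32 ± 0.69. Efemp1 had 512 and 472 in WT and 737 and 1480 in Lats1/2 KO, so that Lats1/2 KO 2 stood well above Lats1/2 KO 1. Pcolce2 was very scarce in WT, with 12.6 and 3.31 against 69.7 and 88.3 in Lats1/2 KO. The stromelysin genes Mmp3 and Mmp10 were variable, with 20.2 and 5.51 in WT and 29.0 and 338 in Lats1/2 KO for Mmp3 and 23.98 and 159 in WT and 306 and 526 in Lats1/2 KO for Mmp10. The 3 that fell were Mmp2, the membrane metalloproteinase gene Mmp15 (-0.82 ± 0.13) and P4hb, a subunit of the collagen prolyl hydroxylase and a general folding enzyme (-1.01 ± 0.20). On TMM factors Mmp2 was not called (edgeR adjusted p 0.0847), and with summed counts none of the 3 was, at -0.33, -0.13 and -0.32.

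**Figure D3:**
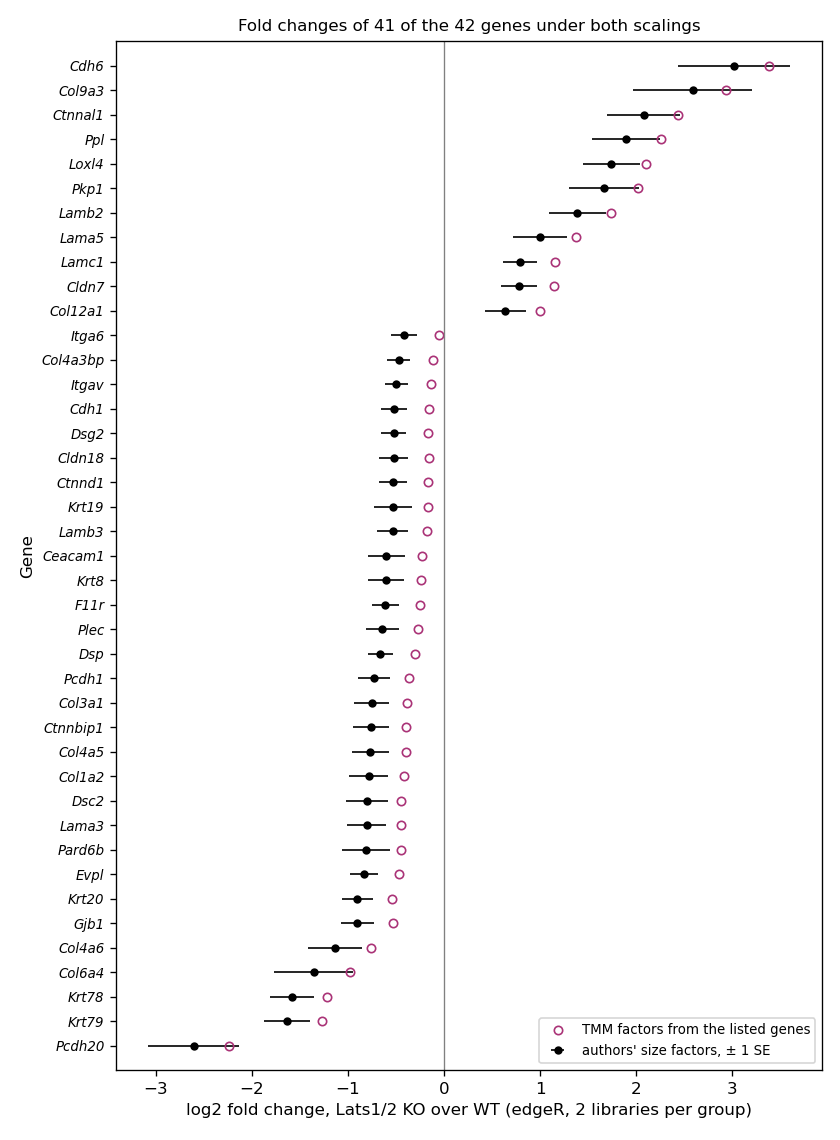
Log2 fold change of Lats1/2 KO over WT for 41 of the 42 genes, by edgeR with 2 libraries per group: filled points with bars of 1 SE use the authors' size factors, open circles use TMM factors from the listed genes. On TMM factors every point lies about 0.36 higher, no direction turns, and Itga6 is at -0.05; scaling by summed counts (not drawn) turns 15 of the falls.

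**Figure D4:**
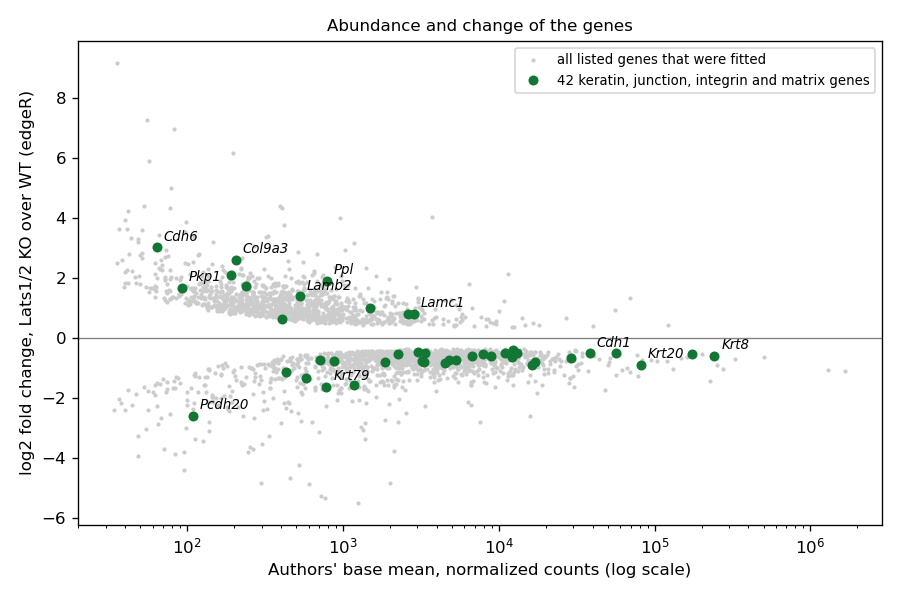
Authors' base mean (log axis) against the edgeR log2 fold change for the listed genes (grey) and the 42 keratin, junction, integrin and matrix genes (green). The gap around 0 is where genes did not enter the deposited table; the 28 green points with a base mean of at least 1000 include 3 rises, and the 14 below it include 8, on the authors' scaling.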

How the data were processed

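RNA-seq was made from 4 libraries, 2 per genotype, grouped by their titles. The submitters' processing notes name build GRCm38 and the tools HTSeq, DESeq2 and TopHat2 (2.1.1); their settings are not stated in the sources used here. The deposited table holds raw counts of each gene in each library, as whole numbers. It also gives the authors' base mean, a signal, log2 fold change and SE (shrunken toward 0), Wald statistic (a score), p-value and adjusted p-value, per the file headers. No deposited adjusted p-value exceeds 0.05.

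The table's counts sum to 14315314 and 17689207 in WT 1 and 2 and 13413629 and 14225132 in Lats1/2 KO 1 and 2; these are sums over listed genes and not library depths. The authors' size factors, recovered from base means and counts, were 0.792, 0.907, 1.10 and 1.28, and rebuilt base means deviated by at most 0.0119%. The number of tested genes was inferred from p-values and their adjusted values. Lats2 was not analysed here. The chi-square per degree of freedom between replicates was 114 in WT and 108 in Lats1/2 KO, so no library was a copy of another.

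The whole table was fitted with edgeR 4.0.16 (quasi-likelihood, filterByExpr, genotype as the one factor, Benjamini-Hochberg adjustment) and DESeq2 1.42.0 in R 4.3.3. The fit was also run on simulated counts in which most genes were unchanged, with the authors' factors. The deposited table holds selected genes only, so that run does not bear on the choice of scaling. Alternatives were TMM, DESeq2 and summed-count scaling, no filter, DESeq2, a replicate block, an adjusted p of 0.01 and each library left out. Since every listed gene had passed the authors' test, edgeR calls are no independent evidence. Symbols, coordinates and exon lengths are from GENCODE M21, which matched 2698 of 2701 IDs. Exons of 12 of the 42 genes overlap another annotated gene. The promoter search left out the genes on chromosome 18, namely Lama3, Dsc2, Dsg2 and Pcdh1. The 32851 windows set beside it were all RefSeq promoter windows, so the compared shares differ in this respect. One of the 42 genes enters the counts and is not reported by name. The genes, lists and rules were chosen with earlier results of these data known. Values per library were planned for fixed genes, the 5 lowest adjusted p per family and the 5 largest changes each way at a base mean of at least 50 (35 of the 42); those of the others, and of Krt4 and partner genes, were added after the values were seen.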

Additional observations from a re-analysis of the deposited data

How the results depend on the processing

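The 11 rises kept their call under each scaling, without a filter and by DESeq2. The 31 falls became 6 with TMM factors, 6 with DESeq2 size factors and 3 with summed counts, each computed from the listed genes; over the table, 1541 falls became 494, 432 and 173. At an adjusted p of 0.01 edgeR called 0 of the 42 in either direction (42 had an unadjusted p under 0.05) and 3 listed genes higher and 1 lower, while 31 of the 42 were below 0.01 in the authors' deposited table. With 1 library left out in turn, rises ranged from 0 to 11 and falls from 0 to 31, and over the table from 4 to 1038 and from 1 to 1416; the lowest were without Lats1/2 KO replicate 2. DESeq2 without 1 library, added after the data were seen, called 3 rises and 16 falls without Lats1/2 KO replicate 2, 7 and 17 without Lats1/2 KO replicate 1, and 9 falls without WT replicate 2. With summed counts the log2 fold changes that turned included Cdh1 0.18, Ceacam1 0.11, Cldn18 0.17, Col4a3bp 0.22, Ctnnd1 0.17, Dsg2 0.17, Dsp 0.0294, F11r 0.0848, Itga6 0.28, Itgav 0.20, Krt8 0.0974, Krt19 0.18, Lamb3 0.15 and Plec 0.0581. Family medians turned with them, to 0.11 for Ceacam, 0.20 for basement membrane, 0.17 for cadherins and catenins, 0.0581 for desmosome and linkers, 0.24 for integrins, 0.13 for tight junction and 0.63 for interstitial matrix. That last median, -0.06 over 3 rises and 3 falls, was also 0.30 with TMM, 0.35 with DESeq2 factors, 0.000981 without WT replicate 2, -0.12 without Lats1/2 KO replicate 1 and 0.0114 without Lats1/2 KO replicate 2. The replicate block left 10 rises and 31 falls; Col12a1 lost its call (edgeR adjusted p 0.0588). Same-numbered libraries deviated with a correlation of -0.16 over listed genes, and nothing in the labels pairs them. The cause of the losses without single libraries was not tested. Genes that missed the authors' threshold are not analysed here, so what this depth could not detect was not assessed.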

Other observations

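Several of the 42 genes are chromosomal neighbours with no coding gene between them. Krt79, Krt78 and Krt8 follow one another on chromosome 15, with 5676 and 42410 bp between them, and all 3 were lower, at -1.64, -1.58 and -0.60 on the log2 scale, the last positive with summed-count scaling. Krt78 over Krt79 per kb of exon was 2.08 and 2.04 in WT 1 and 2 and 1.78 and 2.54 in Lats1/2 KO 1 and 2. Dsc2 and Dsg2, neighbours at 498519 bp with 6 coding genes between them on chromosome 18, had a ratio per kb of 2.34 and 2.101 in WT 1 and 2 and 2.14 and 1.502 in Lats1/2 KO 1 and 2, with overlapping groups.

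On the X chromosome, all 3 of these genes (Gjb1, Col4a5 and Col4a6) were lower on the authors' scaling, beside 47 of 80 listed X-linked genes (58.75%); on TMM factors Gjb1 alone of the 3 was still called, and with summed counts none was. WT 2 exceeded WT 1 in 26 of the 31 genes that fell and in 5 of the 11 that rose. The share over all listed genes was not computed, so these counts do not show a trait of these genes.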
